A study of Mus musculus with 6 samples.

Results

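The genes described here are the machinery of cell proliferation: 48 listed cyclins, cyclin-dependent kinases, retinoblastoma (RB) and E2F regulators, DNA replication factors and mitotic proteins, among the 55341 genes counted in 6 RNA-seq libraries of cultured mouse cerebellar granule neurons (CGNs). They were chosen by name as S phase, mitosis and cyclin genes, which in such a culture could be carried by residual granule neuron precursors or by glia, and the rule itself uses no measured value. After genes with low counts were removed, 47 of the 48 could be tested among 16343 genes. Only Kif11, a motor protein of the mitotic spindle, was not tested, because it was listed at 0 in all 6 libraries. The other spindle and kinetochore genes had mean levels from 15.04 to 39.1 CPM (counts divided by library size), and whether the 0 of Kif11 comes from how reads were counted was not tested, so it is not read as absence.

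The comparison was GSK-126 (n = 3) against its vehicle DMSO (n = 3), each with replicates 1, 2 and 3, and it asks which transcripts depend on EZH2, the enzyme that GSK-126 inhibits and that places the repressive mark H3K27me3 on histone H3. The labels gave the agent and the replicate number, without a dose or a culture day, and the tissue label read cerebellum where the titles read CGN. According to the methods, the precursors came from pooled cerebella of early postnatal CD1-IGS litters, were isolated on a Percoll gradient, and all cultures also received cytosine arabinoside (AraC), which kills cells in S phase and was added against dividing non-neuronal cells. DMSO and GSK-126 cultures therefore shared an agent that acts on dividing cells. Total counts over genes ran from 8058760 to 12047837 per library, with GSK-126 replicate 1 the deepest. Granule neuron genes marked all libraries (Zic1 1008 to 1720 CPM, Neurod1 350 to 837 CPM), but so did markers of other cells (Gfap 758 to 3182 CPM, Col1a1 2150 to 3754 CPM), so the cultures were not neurons alone. The precursor markers Atoh1 and Gli1 each lay at or below 0.825 CPM in every library.

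Cells enter the cycle when D-type cyclins, with CDK4 or CDK6, and then cyclin E with CDK2 phosphorylate RB proteins and release E2F factors, which switch on the genes for DNA replication. Cyclin A, cyclin B and CDK1 later drive mitosis, in which the spindle, the kinetochores and the spindle checkpoint separate the chromosomes. In the postnatal cerebellum, Sonic hedgehog keeps granule neuron precursors dividing through MYCN and cyclins D1 and D2, and the precursors then leave the cycle and become neurons. CDK inhibitors of the CIP/KIP and INK4 families hold cells out of the cycle, and the INK4 genes are well-known targets of EZH2 and its complex.

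The promoters of these genes were examined first, because S phase genes and mitotic genes are known to carry different regulatory sites. E2F factors bind words such as TTTGGCGC, TTTCCCGC, TTTCGCGC and TTTGCCGC, whereas the cell cycle genes homology region (CHR), a site of the DREAM and MuvB complexes, reads TTTGAA or TTCGAA. RefSeq promoter sequences (GRCm38.p6, from 250 bases before to 50 bases after the start) were available for 39 members, and both strands were searched. Aurkb, Ccna2, Ccnd1, Ccnd2, Ccne2, Gmnn, Mcm4, Rb1 and Tpx2 were not in the table. E2F words were found in 11 of 39 members (28.2%), against 4.45% of 11454 tested genes with a promoter and 2.6% of all 27025 genes of the table. The origin licensing genes held most of them, with 6 of 7 (85.7%). Below are the 100 bases before the start of Mcm6, a subunit of the replicative helicase, and of Rbl1, the RB relative p107. They were picked because their word lies in this stretch, whereas other members with an E2F word, among them Cdc6 and Cdt1, had none there. Bases are written 5′ to 3′ on the gene's own strand with the E2F word in capitals.
Mcm6 (chr1:128359706-128359805, minus strand): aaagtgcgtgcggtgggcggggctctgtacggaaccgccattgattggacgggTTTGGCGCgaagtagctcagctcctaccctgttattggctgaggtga
Rbl1 (chr2:157204535-157204634, minus strand): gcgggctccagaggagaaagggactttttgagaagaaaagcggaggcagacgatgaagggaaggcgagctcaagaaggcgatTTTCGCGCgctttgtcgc

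CHR words were found in 16 of 39 members (41%), against 16.3% of tested genes and 21.7% of all genes of the table. They were in 6 of 7 genes of mitotic entry and exit (85.7%) and in 5 of 8 spindle and kinetochore genes (62.5%), but in 2 of 7 licensing genes (28.6%). The word CCAAT, which the factor NF-Y binds and which often lies near a CHR, was in 27 of 39 members (69.2%), against 42.6% of tested genes and 41.1% of all genes. The corresponding stretches of Cdk1 (the mitotic kinase), Cdc20 (an activator of the anaphase-promoting complex), Top2a and Mki67 show CHR words in capitals, on either strand. They are shown because these genes are standard readouts of dividing cells and their word lies in this stretch. Other such genes with a CHR word, among them Plk1 and Aurka, had none in this stretch.
Cdk1 (chr10:69352913-69353012, minus strand): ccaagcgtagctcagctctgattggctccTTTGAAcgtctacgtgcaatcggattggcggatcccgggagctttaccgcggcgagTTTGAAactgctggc
Cdc20 (chr4:118437344-118437443, minus strand): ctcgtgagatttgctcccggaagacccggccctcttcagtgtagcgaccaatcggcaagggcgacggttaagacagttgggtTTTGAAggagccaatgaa
Top2a (chr11:99024190-99024289, minus strand): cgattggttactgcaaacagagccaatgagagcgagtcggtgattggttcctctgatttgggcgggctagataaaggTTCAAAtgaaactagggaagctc
Mki67 (chr7:135716380-135716479, minus strand): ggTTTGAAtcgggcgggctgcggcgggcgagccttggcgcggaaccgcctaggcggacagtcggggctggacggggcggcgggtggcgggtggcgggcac
Cdk1 held 2 such words in this stretch, and the word of Top2a lies on the opposite strand. Only 3 members held both E2F and CHR words, and 15 held neither. A match to these letters is a description of the sequence and does not show that a factor binds there.

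**Figure D1:**
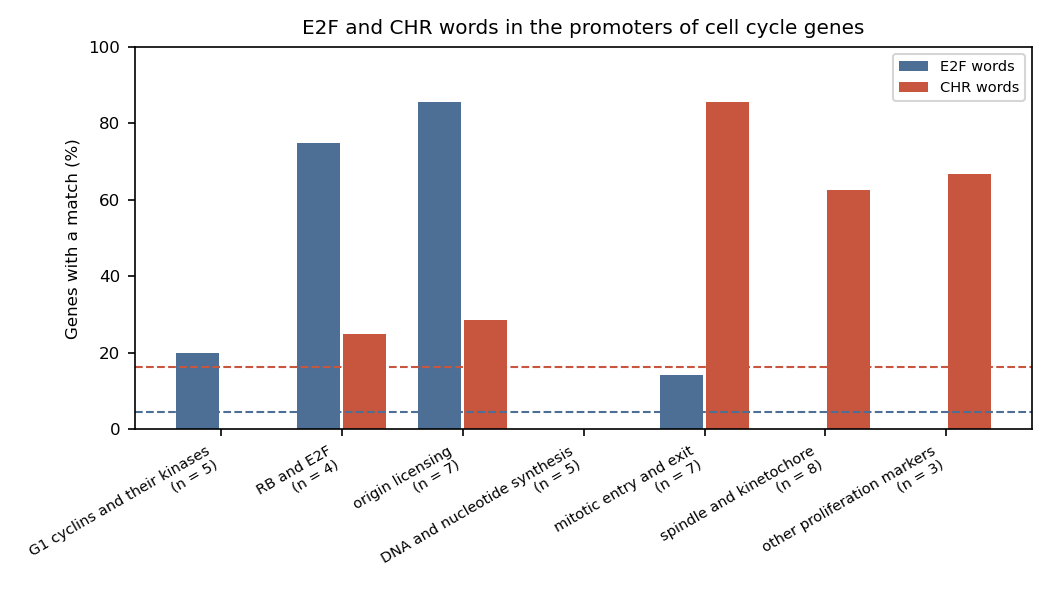
Bars give the percentage of genes in each role (x axis, n genes with a promoter sequence) whose promoter holds an E2F word (blue) or a CHR word (red). Dashed lines are the percentages in all tested genes (4.45% for E2F, 16.3% for CHR), and the bars show E2F words at 85.7% in origin licensing and CHR words at 85.7% in mitotic entry and exit.

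Cell cycle genes were expressed in the DMSO cultures at levels spread around those of other genes. Per length, in TPM (length-corrected and scaled to a common total), the median of the 47 tested members was 19.5 and that of all tested genes 23.1. Cdk4 was highest at 190 ± 15.7 TPM (SD, n = 3), at the 94.9th percentile of tested genes, followed by Ccnd1 (115 ± 37.7), Pcna (102 ± 17.2), the clamp of the replicative polymerases, and Ccnd2 (88.0 ± 26.6). Ccnd1, Pcna and Ccnd2 differed by less than the spread of Ccnd1. The lowest tested members were the E2F genes E2f2 (2.46 ± 0.621 TPM) and E2f7 (2.58 ± 0.235) and the licensing factor Cdc6 (3.60 ± 0.825). By role, the median was 34.7 TPM for DNA and nucleotide synthesis, 31.8 for G1 cyclins and their kinases, 28.3 for origin licensing, 25.2 for mitotic entry and exit, and 15.2 for spindle and kinetochore genes. Counts of the tested members ran from 20 to 5230 per library.

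**Figure D2:**
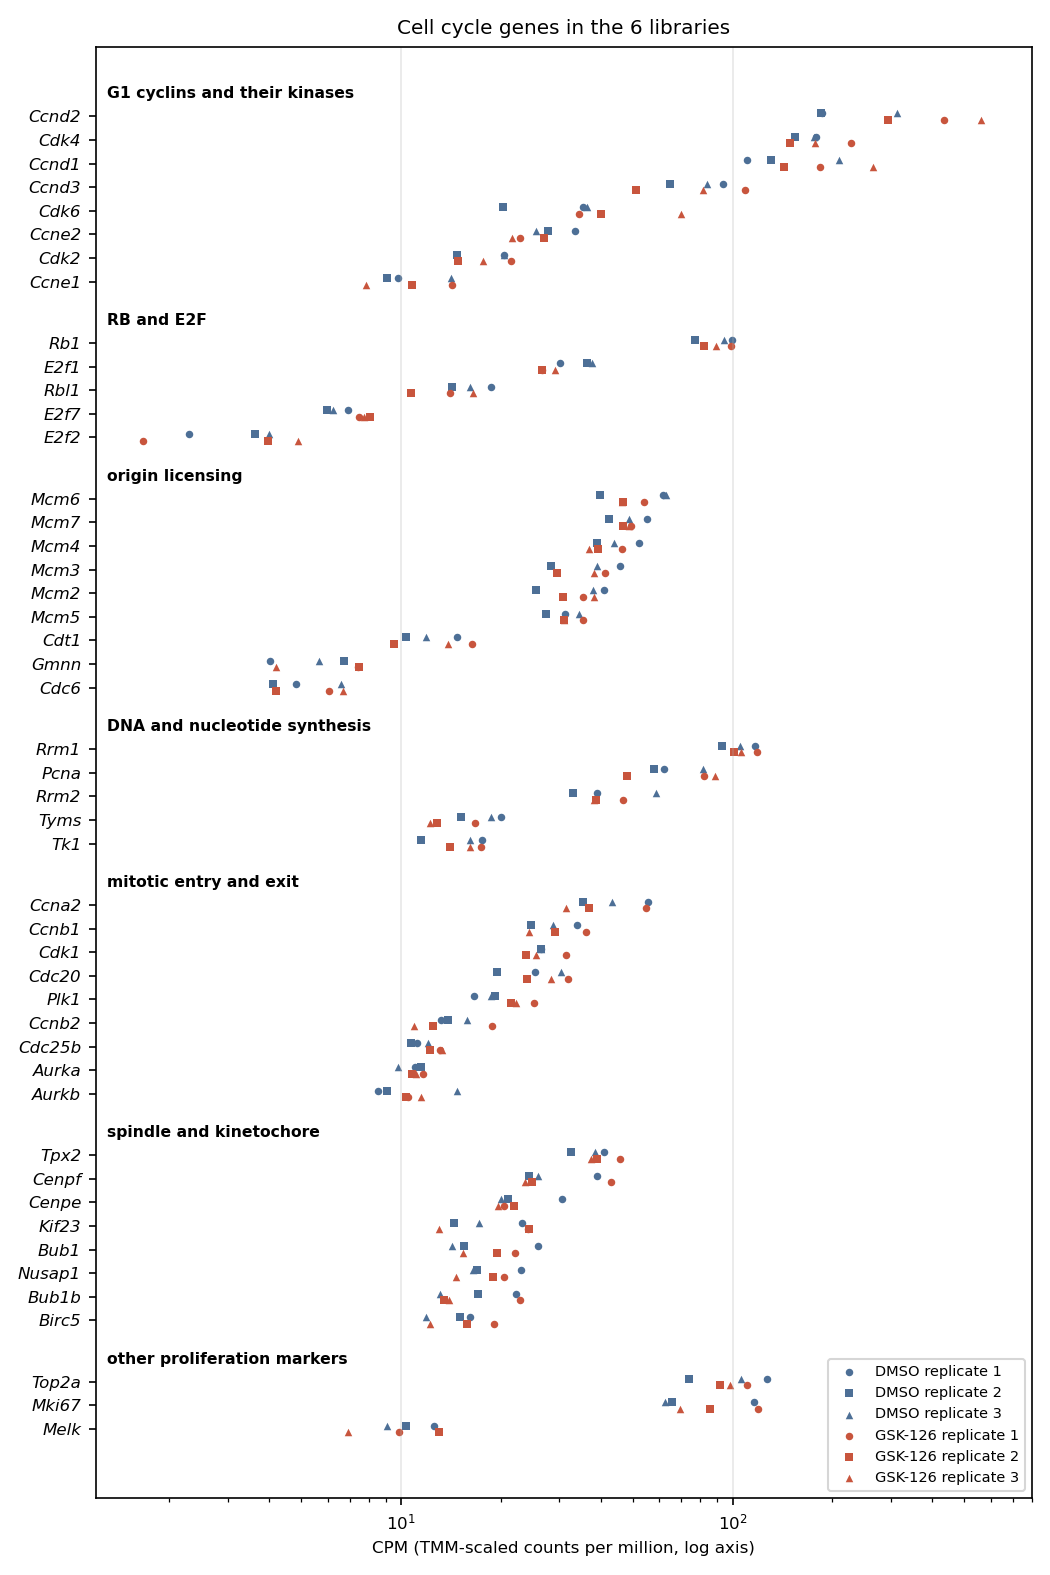
Each point is the CPM (TMM-scaled counts, log x axis) of a member in 1 library, with DMSO in blue, GSK-126 in red and marker shape for the replicate number, and members are grouped by role. Most genes show blue and red points intermixed, whereas Ccnd2 lies between 185 and 314 CPM with DMSO and between 295 and 561 CPM with GSK-126.

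Of the tested members only Ccnd2, a D-type cyclin gene, was higher under GSK-126, and none was lower. In the edgeR quasi-likelihood test with replicate number as a block and Benjamini-Hochberg adjustment over all genes, 365 of 16343 genes were higher (2.23%) and 232 were lower (1.42%), against 1 and 0 of 47 members. Of the members, 4 had an unadjusted p under 0.05, where 16.7% of all genes did, namely Ccnd2, Ccnd1, Cdk6 and E2f1. By limma-voom 4 members and by DESeq2 with the block 3 members were under 0.05 unadjusted, and by both tools 0 members were lower after adjustment. Without the block, edgeR called 0 of 16343 genes (0%) and 0 members, 6.0% of all genes and 1 member had an unadjusted p under 0.05, and the call on Ccnd2 was lost (edgeR adjusted p 0.806). DESeq2 without the block called 46 genes higher and 13 lower, among them 0 members, with 2 members under 0.05 unadjusted. The call on Ccnd2 therefore rests on the pairing by replicate number.

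The members as a whole were centered near 0. Of the 47 tested, 27 had a positive and 20 a negative log2 fold change, with a median of 0.02, beside -0.00 over all genes, and 37 lay within 0.2 of 0. The pair medians were 0.07, 0.14 and -0.04 for replicates 1, 2 and 3, so that 1 pair had the opposite sign to the others. In all 3 pairs 9 members were higher and 3 were lower, a total of 12 of 47, where 39.0% of all genes kept 1 sign. The CPM ranges of the groups were apart for E2f7, Cdc25b and Plk1, which lay above (5.43% of all genes did), and for E2f1, which lay below (5.44% did). For 31 of 47 members the 95% interval of the fold change lay inside 1.5-fold either way, where 48.5% of all genes had such an interval. For 41 members the range of the 3 DMSO libraries was larger than the fold change, a count that was not taken over all genes.

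**Figure D3:**
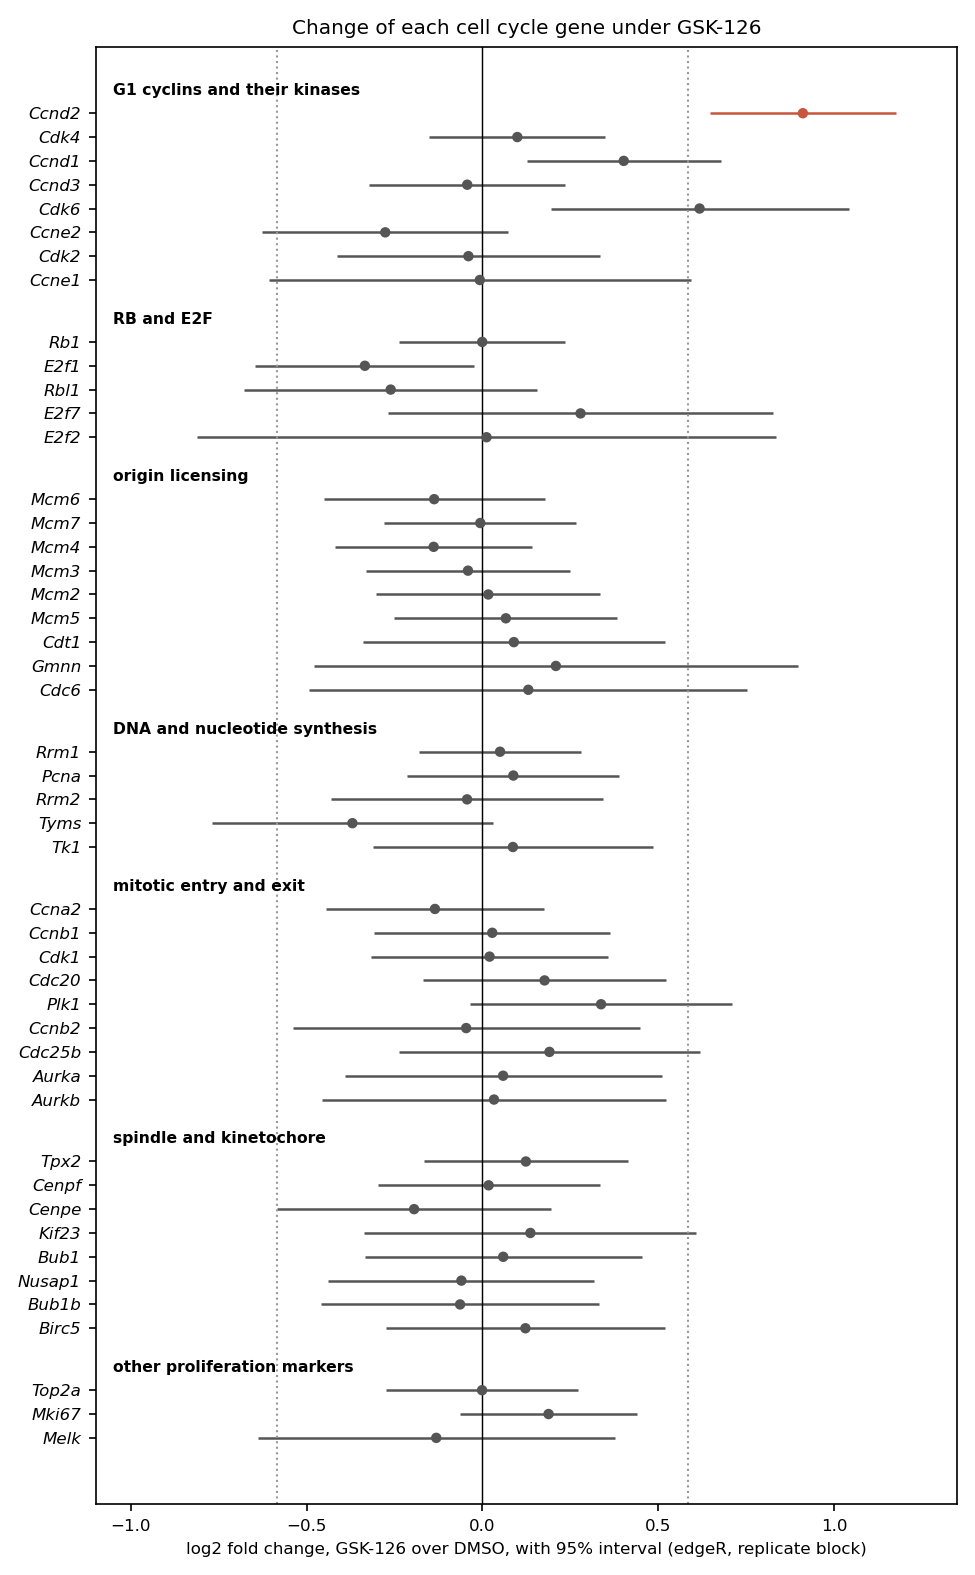
Points give the log2 fold change of each tested member, GSK-126 over DMSO (x axis), with its 95% interval from the edgeR fit with the replicate block, grouped by role. Dotted lines mark 1.5-fold either way, and Ccnd2 (red) is the only member past the adjusted threshold in this fit, at 0.91.

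Ccnd2 encodes cyclin D2, which activates CDK4 and CDK6 in G1 and is used by dividing granule neuron precursors. The gene lies at chr6:127125162-127152193 on the minus strand (GRCm38). It had 186, 185 and 314 CPM with DMSO in replicates 1, 2 and 3, and 434, 295 and 561 CPM with GSK-126. Every GSK-126 library was above its DMSO partner, but DMSO replicate 3 was above GSK-126 replicate 2, so the groups overlapped. The log2 ratios within pairs were 1.22, 0.67 and 0.84. The log2 fold change was 0.91 (SE 0.120, adjusted p 0.00345 in edgeR), a 1.88-fold rise with a 95% interval from 1.57 to 2.26. Leaving out a pair gave log2 values from 0.76 to 1.05, all still called with the block. Antisense genes overlap 7.86% of the Ccnd2 exons, and whether reads from either strand were kept apart there was not stated. In bulk RNA, more cells of a type and more RNA per cell cannot be told apart, which holds for all values here.

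The other D-type cyclins and their kinases were not called. Ccnd1 (chr7:144929931-144939925, minus strand), the other D-type cyclin gene of precursors, had 111, 130 and 209 CPM with DMSO and 184, 143 and 264 CPM with GSK-126. All 3 pairs were higher under GSK-126 while the groups overlapped, and the log2 fold change was 0.40 (SE 0.125, adjusted p 0.121 in edgeR). Exons on the other strand overlap 23.4% of the Ccnd1 exons. Such overlap occurs in 16 of the 48 members, among them Cdk4 (19.7%), Ccne2 (17.4%), Rb1 (14.9%) and Ccna2 (12.5%). Cdk6 (chr5:3341485-3531008, plus strand), a partner kinase of the D-type cyclins, had 35.4, 20.3 and 36.4 CPM with DMSO and 34.3, 40.01 and 69.8 CPM with GSK-126. Pairs 2 and 3 were higher and pair 1 was not, with a log2 fold change of 0.62 (SE 0.193, adjusted p 0.121 in edgeR). Without replicate 1 the value for Cdk6 was 0.96 (edgeR adjusted p 0.00254). Ccnd1 and Cdk6 were singled out after their values were seen. Ccnd3 (-0.04) and Cdk4 (0.10) had small log2 fold changes, with 95% intervals of the fold from 0.80 to 1.18 and from 0.901 to 1.27.

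Per exon length, Ccnd2 made up 36.7%, 35.97% and 38.2% of the summed level of Ccnd1, Ccnd2 and Ccnd3 with DMSO, and 47.3%, 46.3% and 47.7% with GSK-126. The shares did not overlap between groups, but they contain the change of Ccnd2 itself and are no independent result. Cyclin E and CDK2 act after the D-type cyclins. Ccne2 was lower in all 3 pairs, with a log2 fold change of -0.28 and a 95% interval of the fold from 0.648 to 1.05, and was not called. Ccne1 (-0.01) and Cdk2 (-0.04) lay near 0.

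**Figure D4:**
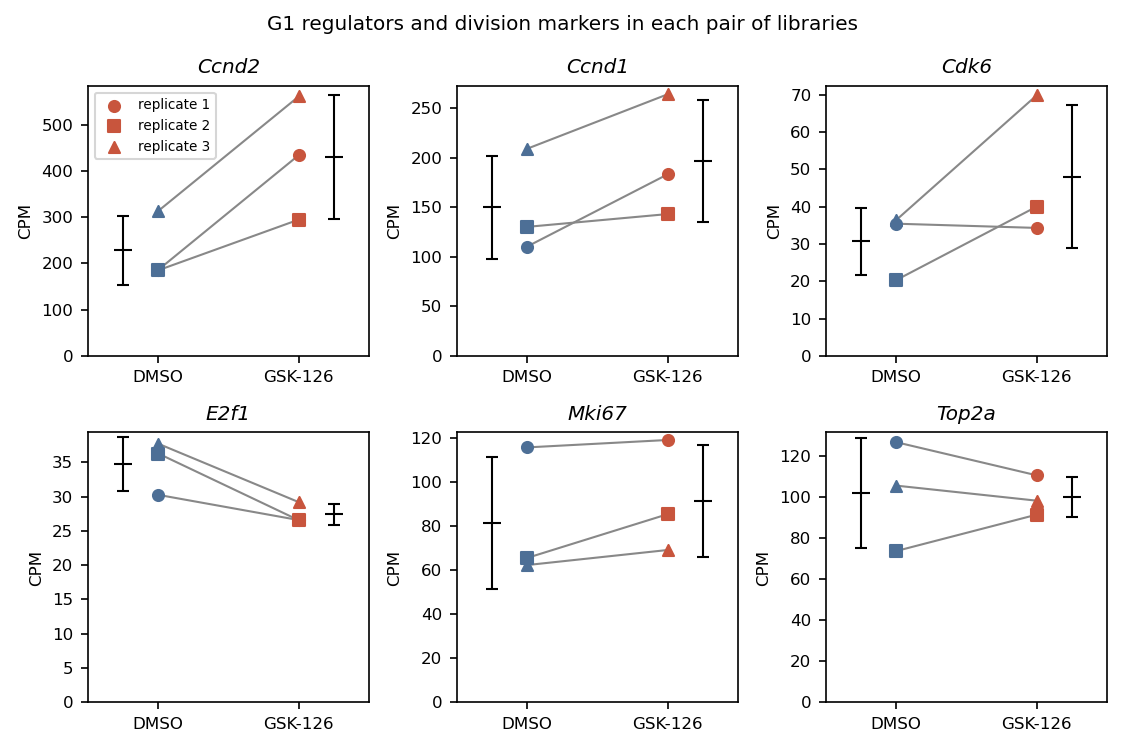
CPM (y axes from 0) of Ccnd2, Ccnd1, Cdk6, E2f1, Mki67 and Top2a in DMSO (blue) and GSK-126 (red) libraries, with gray lines joining libraries of the same replicate number and black bars for the mean ± SD (n = 3). The 3 lines of Ccnd2 rise by 1.22, 0.67 and 0.84 on the log2 scale, whereas lines of Top2a go both ways.

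Among RB and E2F genes none was called, with 1 of 5 under an unadjusted p of 0.05. Rb1, which restrains E2F and is the most abundant of them in CPM, had 99.7, 76.8 and 94.3 CPM with DMSO and 99.1, 81.9 and 88.9 CPM with GSK-126. The groups overlapped, and the fold of 1.00 had a 95% interval from 0.849 to 1.18. E2f1 (chr2:154559407-154569892, minus strand), an activator of S phase genes, had 30.3, 36.3 and 37.7 CPM with DMSO and 26.6, 26.6 and 29.2 CPM with GSK-126. Every GSK-126 library was below every DMSO library, with a log2 fold change of -0.33 (SE 0.142, adjusted p 0.260 in edgeR). E2f7, a repressive E2F, had 5.98 to 6.90 CPM with DMSO and 7.47 to 8.05 CPM with GSK-126 (0.28, edgeR adjusted p 0.642). Rbl1 had a log2 fold change of -0.26 and E2f2 of 0.01.

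The licensing genes, which load the MCM helicase onto replication origins in G1, were flat. Their log2 fold changes ran from -0.14 to 0.21 with a median of 0.02, and 7 of 9 had an interval inside 1.5-fold. Mcm6, the most abundant in CPM, had 61.8, 39.8 and 62.9 CPM with DMSO and 54.1, 46.9 and 46.3 CPM with GSK-126. Its DMSO libraries enclosed all GSK-126 libraries, and the log2 fold change was -0.14 (edgeR adjusted p 0.703). Gmnn, which encodes the licensing inhibitor geminin, had the largest log2 fold change of the role, 0.21, with 4.03, 6.73 and 5.66 CPM with DMSO and 7.39, 7.45 and 4.20 CPM with GSK-126. The other helicase subunits Mcm2 (0.02), Mcm3 (-0.04), Mcm4 (-0.14), Mcm5 (0.07) and Mcm7 (-0.01) and the loading factors Cdt1 (0.09) and Cdc6 (0.13) were not called either.

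Genes for DNA and nucleotide synthesis also gave no call. Rrm1, the large subunit of ribonucleotide reductase, had 117, 92.9 and 105 CPM with DMSO and 118, 101 and 106 CPM with GSK-126. Each pair was slightly higher, and the log2 fold change was 0.05 (edgeR adjusted p 0.870). Tyms, which encodes thymidylate synthase, had 20.01, 15.2 and 18.7 CPM with DMSO and 16.7, 12.9 and 12.3 CPM with GSK-126. All 3 pairs were lower but the groups overlapped, and the log2 fold change was -0.37 (SE 0.182, adjusted p 0.344 in edgeR), the most negative of the members. Pcna (0.09), the small reductase subunit Rrm2 (-0.04) and thymidine kinase Tk1 (0.09) had values near 0.

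In mitotic entry and exit, 7 of 9 log2 fold changes were positive, with a median of 0.03. Ccna2, the S and G2 cyclin and the most abundant of the role in CPM, had 55.7, 35.4 and 43.2 CPM with DMSO and 55.0, 37.0 and 31.5 CPM with GSK-126. Replicate 1 was the highest library in both groups, and the log2 fold change was -0.14 (edgeR adjusted p 0.703). Plk1, a kinase of mitotic entry and spindle assembly, had 16.6, 19.2 and 18.7 CPM with DMSO and 25.2, 21.4 and 22.1 CPM with GSK-126. Every GSK-126 library was above every DMSO library, with a log2 fold change of 0.34 (SE 0.170, adjusted p 0.357 in edgeR). The phosphatase gene Cdc25b, whose groups did not overlap either, had 10.7 to 12.02 CPM with DMSO and 12.3 to 13.3 CPM with GSK-126 (0.19, edgeR adjusted p 0.694). The cyclin B genes Ccnb1 (0.03) and Ccnb2 (-0.05), Cdk1 (0.02), Cdc20 (0.18) and the Aurora kinases Aurka (0.06) and Aurkb (0.03) were not called.

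Spindle and kinetochore genes had log2 fold changes from -0.19 to 0.14. Tpx2, a spindle assembly factor, had 41.1, 32.7 and 38.5 CPM with DMSO and 45.8, 38.9 and 37.5 CPM with GSK-126. The groups overlapped, and the log2 fold change was 0.12 (edgeR adjusted p 0.709). Cenpe, a kinetochore motor, had 30.6, 21.1 and 20.03 CPM with DMSO and 20.4, 21.9 and 19.6 CPM with GSK-126. DMSO replicate 1 was the one high library, and the log2 fold change was -0.19 (edgeR adjusted p 0.651). The checkpoint genes Bub1 (0.06) and Bub1b (-0.06), the chromosomal passenger Birc5 (0.12), Cenpf (0.02), the cytokinesis motor Kif23 (0.14) and the microtubule binder Nusap1 (-0.06) lay close to 0.

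The standard markers of dividing cells gave no call. Mki67 (chr7:135689784-135716361, minus strand), which encodes the antigen Ki-67, had 116, 65.6 and 62.3 CPM with DMSO and 119, 85.4 and 69.2 CPM with GSK-126. Each pair was higher, with log2 ratios of 0.04, 0.38 and 0.15, while the groups overlapped and replicate 1 was highest in both. The log2 fold change was 0.19 (SE 0.114, adjusted p 0.452 in edgeR), with a 95% interval of the fold from 0.957 to 1.36. Top2a (chr11:98992943-99024189, minus strand), the topoisomerase of S and G2 phase, had 127, 73.8 and 106 CPM with DMSO and 111, 91.6 and 98.4 CPM with GSK-126. Pair 2 was higher and the other pairs were lower, with a log2 fold change of -0.00 (SE 0.124, adjusted p 0.998 in edgeR) and a 95% interval of the fold from 0.828 to 1.21. Melk, a mitotic kinase gene, had a log2 fold change of -0.13.

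The DMSO replicates of the members were spread about as widely as those of other genes. The median ratio of the highest to the lowest DMSO library was 1.42 for the members and 1.41 for all tested genes. Replicate 1 was the highest of the 3 DMSO libraries for 28 members and the highest of the 3 GSK-126 libraries for 30, whereas replicate 2 was highest for 3 and 6. Over all 16343 tested genes, replicate 1 was highest for 5493 with DMSO and 5379 with GSK-126, and replicate 2 for 5729 and 6304. All 8 tested spindle and kinetochore genes were highest in replicate 1 with DMSO, and 6 of them with GSK-126. The summed astrocyte and Bergmann glia genes were also highest in replicate 1 and lowest in replicate 2 of both groups, with levels of 8004, 2773 and 4996 CPM with DMSO and 8306, 2745 and 4321 CPM with GSK-126, while the sum of all members was highest in replicate 3 with DMSO. The licensing, synthesis, mitotic and spindle genes with the other markers summed to 1244, 911 and 1105 CPM with DMSO in replicates 1, 2 and 3. With GSK-126 they summed to 1264, 1008.5 and 1028 CPM, so in this sum replicate 1 was highest and replicate 2 lowest in both groups. Taken by role with GSK-126, the mitotic, spindle and other marker genes were lowest in replicate 3 (179, 150 and 174 CPM). Only the licensing and synthesis genes were lowest in replicate 2 (245 and 214 CPM). The part of the glia in the members' levels was not tested.

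Summed over all members, the level was 2070, 1655 and 2143 CPM with DMSO and 2460, 1871 and 2376 CPM with GSK-126, with ratios within pairs of 1.19, 1.13 and 1.11. Without Ccnd2 the ratios were 1.08, 1.07 and 0.992. For the licensing, synthesis, mitotic and spindle genes with the other markers together, they were 1.02, 1.11 and 0.930. G1 cyclins and their kinases, which include Ccnd2, had ratios of 1.57, 1.21 and 1.37. RB and E2F genes had ratios of 0.943, 0.959 and 0.929, below 1 in all 3 pairs. Rb1 made up most of the sum, but its own log2 ratios within pairs were -0.01, 0.09 and -0.08.

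The promoter classes had similar medians and overlapping ranges of response. The median log2 fold change was 0.01 for 11 members with an E2F word (from -0.26 to 0.28), 0.02 for 15 tested members with a CHR word (from -0.06 to 0.34) and -0.01 for 15 members with neither (from -0.37 to 0.62). Ccnd2 had no sequence in the table and is in none of the classes.

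Further cell cycle genes outside the list were examined in the same fit. Of 29 tested S phase genes and of 38 tested G2 and M phase genes, 0 were called, with 3 in each under an unadjusted p of 0.05 (1 positive and 2 negative in S phase, 3 positive in G2 and M), and their median log2 fold changes were -0.02 and -0.01. Of 16 other RB, E2F and DREAM regulators 0 were called and 4 were under 0.05 unadjusted. These were Lin9 (-0.61), Lin37 (-0.49) and E2f6 (-0.37), which were lower in all 3 pairs, and Mybl1 (0.76), which was higher in all 3, and they were named after their values were seen. Lin9 and Lin37 are MuvB subunits, E2f6 is a repressive E2F and Mybl1 a relative of Mybl2. Mybl1 was called only in the fit with no filter (adjusted p 0.0409 in edgeR). Mybl2, a late cell cycle activator, had a log2 fold change of 0.05, Foxm1, an activator of mitotic genes, of 0.11, and E2f4, the main E2F of DREAM, of 0.07. Atad2 and Nek2 were, like Kif11, listed at 0 in all 6 libraries.

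CDK inhibitors, which oppose the D-type cyclins, included 3 of 7 genes called higher (2.23% of all genes were) and 0 lower. This list and those that follow were chosen with earlier results of these data known, so such shares are descriptions only. Cdkn2a, the INK4A and ARF gene, had 2.65, 5.49 and 10.02 CPM with DMSO and 18.4, 10.7 and 21.7 CPM with GSK-126. All GSK-126 libraries were above all DMSO libraries, and the log2 fold change was 1.56 (SE 0.318, adjusted p 0.0228 in edgeR). Cdkn2b, the neighboring INK4B gene, rose by 1.08 on the log2 scale (SE 0.248, adjusted p 0.0376 in edgeR), with 9.09 to 27.9 CPM with DMSO and 22.7 to 39.2 CPM with GSK-126. Cdkn1a, which encodes p21, rose by 0.46 (SE 0.112, adjusted p 0.0461 in edgeR), with 99.4 to 238 CPM with DMSO and 153 to 320 CPM with GSK-126. Cdkn1b, the p27 gene of neurons that have left the cycle, had a log2 fold change of -0.17 and Cdkn2c of 0.10, and neither was called. The remaining Cdkn2d (-0.28) and Cdkn1c (0.06) were not called either. Without the block none of the 3 was called, with edgeR adjusted p-values of 0.806, 0.824 and 0.861 for Cdkn2a, Cdkn2b and Cdkn1a, and 0.169, 0.545 and 0.991 by DESeq2. Cdkn1a was called in none of the fits that left out a pair (0.36 to 0.57, edgeR adjusted p from 0.0605 to 0.201). Cdkn2b was not called without replicate 1 (0.64, edgeR adjusted p 0.063) or replicate 2 (edgeR adjusted p 0.0747), and Cdkn2a was called in all 3 such fits (1.05 to 1.85).

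Markers of the cells that could carry these transcripts were counted beside them. Of the 5 tested of 7 granule neuron precursor genes, Mycn was higher, at 9.20, 14.3 and 17.8 CPM with DMSO and 24.2, 30.04 and 23.96 CPM with GSK-126 (log2 fold change 0.95, edgeR adjusted p 0.0282), and the summed level was 241 to 340 CPM with DMSO and 211 to 287 CPM with GSK-126. Mycn was not called without replicate 1 (edgeR adjusted p 0.0631) or replicate 2 (edgeR adjusted p 0.12). A pair of more abundant precursor genes lay in the other direction, lower in all 3 pairs, and were named after their values were seen. They were the hedgehog receptor Ptch1 (-0.30, edgeR adjusted p 0.164) and the co-receptor Boc (-0.37, edgeR adjusted p 0.0850), neither of them called. Hhip (1.04, edgeR adjusted p 0.377), higher in 2 pairs, and Gli2 (-0.09, edgeR adjusted p 0.896) were the remaining tested genes and were not called. The Sonic hedgehog target Gli1 had 0, 0.249 and 0.825 CPM with DMSO and 0.0830, 0 and 0.795 CPM with GSK-126. Its counts of 0 allow up to 0.350 CPM in DMSO replicate 1 and 0.358 CPM in GSK-126 replicate 2. Granule neuron genes gave 4 of 9 lower (1.42% of all genes were), namely Gabra6 (-1.42, edgeR adjusted p 0.000340), Snap25, Rbfox3 and Neurod1, and their sum was 4682 to 6752 CPM with DMSO and 3256 to 5091 CPM with GSK-126. Without replicate 2, Rbfox3 (edgeR adjusted p 0.175) and Neurod1 (edgeR adjusted p 0.0536) were not called, nor was Rbfox3 without replicate 3 (edgeR adjusted p 0.0669).

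Several non-neuronal lists held genes that were called higher, as Ccnd2 was. Endothelial and mural genes gave 3 of 8 tested genes higher (Flt1, Pdgfrb and Acta2; 2.23% of all genes were higher), with a sum of 496 to 772 CPM with DMSO and 848 to 1066 CPM with GSK-126, while Pecam1 lay between 1.12 and 3.00 CPM (0.37, edgeR adjusted p 0.774) and the defining marker Cldn5 was too low to test. Microglia genes gave 2 of 9 higher (C1qb and C1qc), with a sum of 298 to 506 CPM against 360 to 775 CPM, and Csf1r had a log2 fold change of 0.19. Fibroblast genes gave 1 of 6 higher (Col1a1, 0.46, edgeR adjusted p 0.0359), with a sum of 6709 to 8768 CPM against 8791 to 9752 CPM. The oligodendrocyte lineage gave 1 of 10 higher (Cspg4, a gene that pericytes share), with a sum of 523 to 794 CPM against 584 to 922 CPM and a log2 fold change of -0.21 for Pdgfra. Astrocyte and Bergmann glia genes gave 0 of 10 calls, with sums of 2773 to 8004 CPM against 2745 to 8306 CPM. In this list 3 genes were under an unadjusted p of 0.05 in edgeR, named after their values were seen. They were S100b (log2 fold change 0.58), Fabp7 (-0.37) and Slc1a3 (-0.23), while Gfap (0.17, edgeR adjusted p 0.490) was not among them. GABAergic neuron genes gave 1 of 7 lower (Slc32a1; 1.42% of all genes were lower), with a sum of 196 to 264 CPM against 171 to 197 CPM. Several of these calls were lost when 1 pair was left out. Without replicate 2, Flt1 (edgeR adjusted p 0.0507), Acta2 (0.0536), Cspg4 (0.0501), C1qc (0.055), Col1a1 (0.244) and Slc32a1 (0.13) were not called. Without replicate 1, C1qb (log2 fold change 0.40, edgeR adjusted p 0.0603), C1qc (0.39, 0.0604) and Col1a1 (0.36, 0.0546) were not called, and without replicate 3 Slc32a1 (0.249) was not. Pdgfrb was called in all 3 such fits. Without the block, edgeR called none of these genes, whereas DESeq2 called Flt1 (adjusted p 0.00524) and none of the other genes named here. The part of any of these cells in the value of Ccnd2 was not tested.

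**Figure D5:**
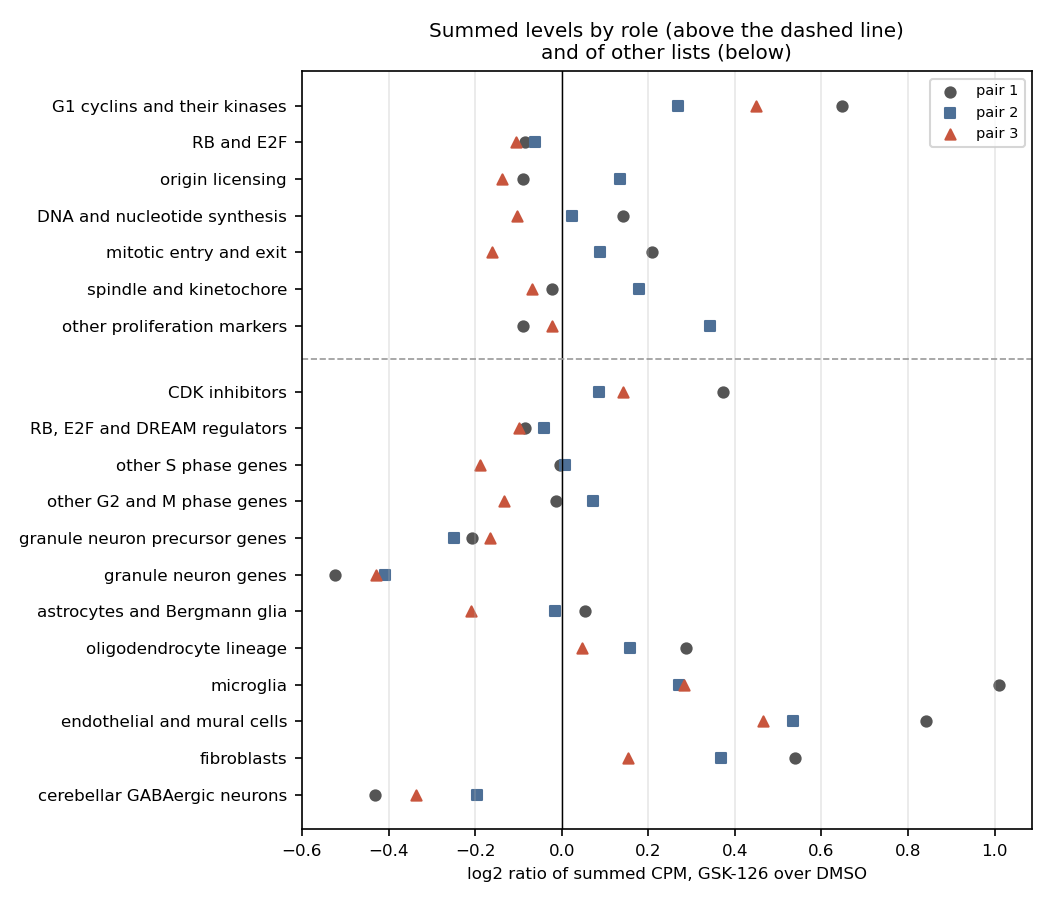
Points give the log2 ratio of summed CPM, GSK-126 over DMSO (x axis), in pairs 1 (black circles), 2 (blue squares) and 3 (red triangles), for the roles of the members above the dashed line and for the other lists below it. Points of the G1 cyclins lie right of 0 in all 3 pairs. So do those of CDK inhibitors and of oligodendrocyte lineage, endothelial and mural, microglia and fibroblast genes, whereas points of the licensing and mitotic roles lie on both sides.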

How the data were processed

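Each library had 1 deposited table of raw counts over genes, not normalized by the authors. According to the submitters' processing notes and the methods, the authors trimmed reads with Trimmomatic 0.38, aligned them to mm10 (GRCm38) with STAR 2.7.2b and counted them over exons with HTSeq and a Gencode annotation; the strand setting was not given in the sources used here. Summary rows that name no gene, left out of tests, held the fragments not assigned (39.1% to 41.6% were assigned).

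Genes were filtered with filterByExpr by group and scaled by TMM. The main test was edgeR 4.0.16's quasi-likelihood test (R 4.3.3; glmQLFit with legacy=TRUE) with replicate number as a block, with adjustment by Benjamini-Hochberg and a threshold of 0.05. The block was used because the rule of this comparison pairs libraries by replicate number. In these same data, same-numbered libraries deviated together from their group means (correlations 0.35, 0.50 and 0.52, other combinations -0.41 to -0.01). The labels do not name separate cultures, although the methods define a culture replicate as pooled litters, so p-values measure the spread between these libraries. Alternatives used limma 3.58.1 and DESeq2 1.42.0, other scaling, no filter and leaving out libraries. The fit was tested on simulated data. No pair of libraries agreed within sampling noise.

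CPM are TMM-scaled, TPM used summed exon lengths, and coordinates came from GENCODE M21. Pair ratios used a prior count of 2. Floors (3 counts) cover counting error only. Members and lists were chosen with earlier results of these data known. Values in every library were given for called members, Mki67, Top2a and, per role, the most abundant member in CPM and that with the largest change. Of other lists, called genes and a fixed set of markers were named; some marker genes are not reported here and were left out of their lists.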

Additional observations from a re-analysis of the deposited data

How the results depend on the processing

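Leaving out the replicate block changed the main result. The number of members called higher was 1 with the block, 0 without it and 0 by DESeq2 without it, the last chosen after seeing the data; the cause was not tested. It was 3 with no filter on low counts (Ccnd2, Ccnd1 and Cdk6), and leaving out libraries gave 0 to 2, where 2 came without replicate 1 (Ccnd2 and Cdk6) and 0 from every fit without the block. The number called lower was 0 in every fit. For Ccnd2 the log2 fold change ran from 0.68 to 1.23 over all fits, with adjusted p-values from 2.41e-14 to 0.0111 with the block and from 0.173 to 1 without it. DESeq2 size factors, limma-voom, robust shrinkage and DESeq2 with the block gave 1 call, Ccnd2.

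The median log2 fold change of the members ran from -0.079 to 0.12 when libraries were left out, both ends from fits without the block, without GSK-126 replicate 1 and without DMSO replicate 1. The sign of genes near 0 was not fixed. Top2a was 0.0023, 0.0067 and 0.0034 and Rb1 0.0027, 0.0070 and 0.0028 with DESeq2 size factors, no filter and DESeq2 with the block. When libraries were left out, log2 fold changes ran from -0.073 to 0.52 for Mki67, -0.20 to 0.17 for Top2a, -0.094 to 0.081 for Rb1, -0.33 to 0.019 for Mcm6, -0.12 to 0.51 for Gmnn, -0.022 to 0.14 for Rrm1, -0.39 to 0.075 for Ccna2, -0.31 to 0.013 for Cenpe, -0.27 to 0.32 for Cdkn2c, -0.018 to 0.37 for Csf1r, -0.091 to 0.22 for E2f4, -0.096 to 0.30 for Foxm1, -0.39 to 0.60 for Gfap, -0.18 to 0.32 for Mybl2, -0.42 to 0.080 for Pdgfra and -0.086 to 0.69 for Pecam1.

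With 3 libraries per group and counts from 20, changes of low members under 1.5-fold were often not detectable, and intervals of 16 members reached past 1.5-fold.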
